A study of Mus musculus with 28 samples.

Results

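This comparison sets 3 libraries of GFP+ thyroid gland cells beside 3 libraries of GFP+ salivary gland cells, 6 of the 28 libraries in the series, chosen by their labels and not by any measured value. Both groups came from H2B-GFP mice aged 9 months, a line in which histone H2B is fused to green fluorescent protein, and cells were profiled directly after sorting for GFP. The matching GFP- fractions of both glands at 9 months, with 3 libraries each, entered the same model and serve as the comparison for what is particular to the GFP+ sort. The promoter that drives the transgene, the labelling schedule, the salivary gland that was taken, and any pooling of animals are not given in the sources used here. The labels do not state that replicates came from separate animals, so p-values measure the spread between these libraries, which may be technical.

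H2B-GFP is held in chromatin, and each division shares it between the daughter cells, so cells that divide rarely keep the label. Slow division alone does not mark a stem cell, and connective tissue, endocrine and secretory cells of a resting gland can all hold label. The thyroid gland contains follicular cells that store thyroglobulin, calcitonin-producing C cells and, beside or within its capsule, the parathyroid glands. Salivary glands are built of acini that secrete mucins and other salivary proteins and of ducts that, in the mouse, store kallikreins and growth factors in granules.

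The libraries were shallow and very unequal. Reads assigned to genes numbered 65112, 170230 and 85999 in thyroid GFP+ replicates 1 to 3, against 993, 11795 and 79225 in salivary GFP+ replicates 1 to 3, and genes with at least 1 read numbered 6890, 9666 and 7074 against 121, 954 and 3402. Replicate 3 held 86.1% of all salivary GFP+ reads and replicate 1 held 1.08%, so a single read stood for 1007 CPM (counts scaled to the total reads in genes) in salivary replicate 1, 84.8 CPM in replicate 2 and 12.6 CPM in replicate 3. A gene with 0 reads over the group could still have made up 9.34 CPM in thyroid and 32.6 CPM in salivary cells, taking 3 reads as the limit that a count of 0 allows. Mitochondrial ribosomal RNA took 13.5, 15.2 and 14.7% of thyroid reads and 45.9, 50.5 and 41.1% of salivary reads, with a 95% Wilson interval of 42.8 to 49.0% in the smallest library. In bulk libraries of this kind, fewer cells of a type and less RNA per cell cannot be told apart.

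**Figure D1:**
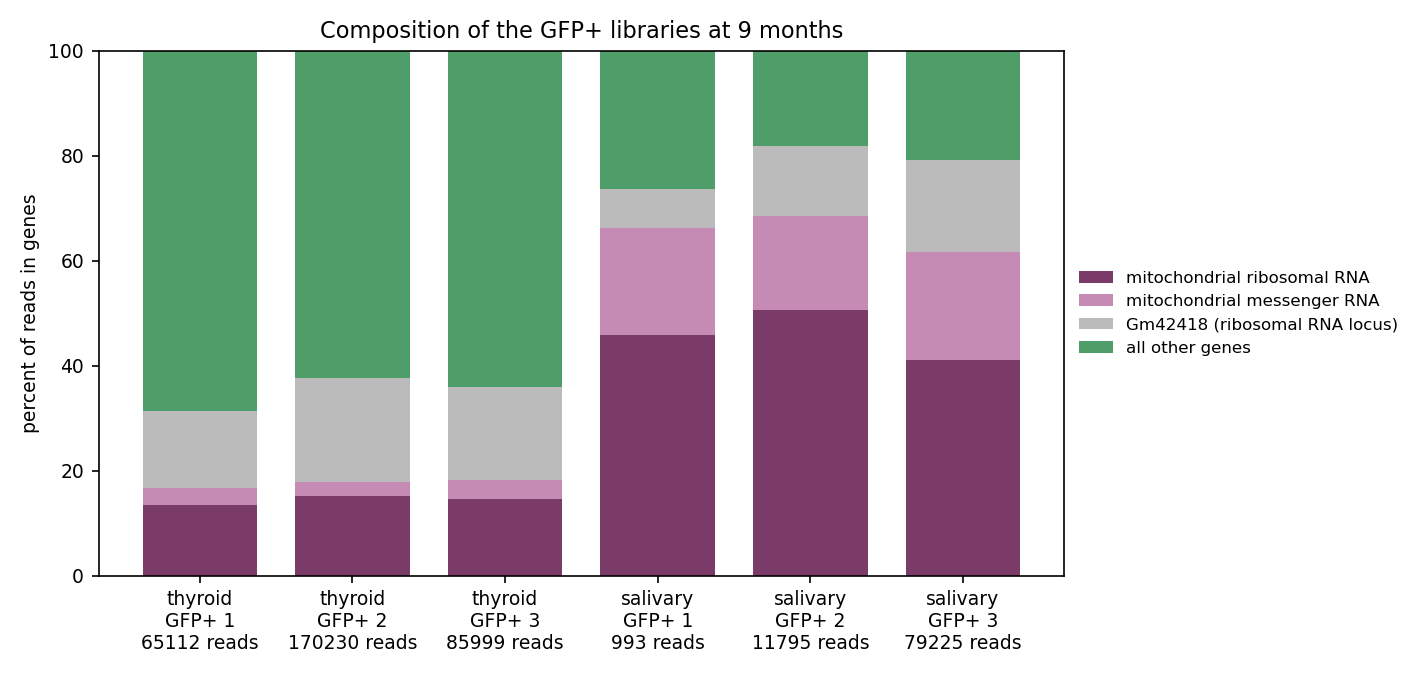
Stacked bars give the percent of reads in genes taken by mitochondrial ribosomal RNA, mitochondrial messenger RNA, the ribosomal RNA locus Gm42418 and all other genes in each GFP+ library, with the number of reads under each bar. All other genes held 68.7, 62.3 and 64.0% of reads in the thyroid libraries and 26.3, 18.2 and 20.8% in the salivary libraries.

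Over all 974 genes that passed the filter on low counts, a quasi-likelihood F test in edgeR called 142 genes (14.6%) at a Benjamini-Hochberg adjusted p under 0.05. Of these, 93 were higher in thyroid GFP+ cells (9.55% of the genes tested) and 49 were lower (5.03%). With library totals in place of TMM the split was 688 higher and 40 lower, and with DESeq2 it was 525 and 21. All 14461 genes with any read in the 12 libraries entered DESeq2. Its own filter can leave some of them without an adjusted p, and how many was not counted. The median fitted change of all genes tested was 1.16 with TMM and 2.86 with library totals over the same 974 genes, so a change is to be read against that median. Without salivary replicate 3 the split was 12 and 19, and without salivary replicate 2 or thyroid replicate 2 or 3 it was 42 and 40, 39 and 40, and 45 and 41. The higher genes included 18 of the 22 fibroblast genes tested, Pth and Chga, and the lower ones all 23 of the acinar and duct genes tested. Among the 93, 64 had 0 reads in every salivary library, so their fold is given as a bound against 3 salivary reads over the group. These bounds ran from 7.45-fold to 317-fold with a median of 11.7-fold when scaled by library totals, and all of them are 3.68-fold smaller (2.02-fold to 86.1-fold) when scaled by TMM, the trimmed-mean factors of the fit. Single-gene bounds below are by library totals unless TMM is named. The adjusted p values beside them come from the fit with TMM. Setting salivary replicate 3 aside makes every one of the 64 bounds by totals 7.20-fold smaller, at 1.03-fold to 44.0-fold with a median of 1.63-fold. Among the 49 lower genes, 23 had 0 thyroid reads and were at least 4.66-fold to 1061-fold lower by totals. For these genes the TMM bounds are larger by the same factor, so the lowest becomes 17.1-fold. With that library set aside, 21 of the 23 still had salivary reads and their bounds by totals were 8.38-fold to 846-fold. All 93 higher genes had their groups apart, which for the 64 at 0 salivary reads needs only a read in each thyroid library. Of the 49 lower genes, 10 had their groups apart, and 37 did when the salivary library of 993 reads was set aside. The share with groups apart over all 974 genes tested was not counted, and 186 of these genes had 0 salivary reads. These counts therefore do not rank the higher calls against the lower ones. Where groups are said below not to overlap, this describes the libraries of that gene only.

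**Figure D2:**
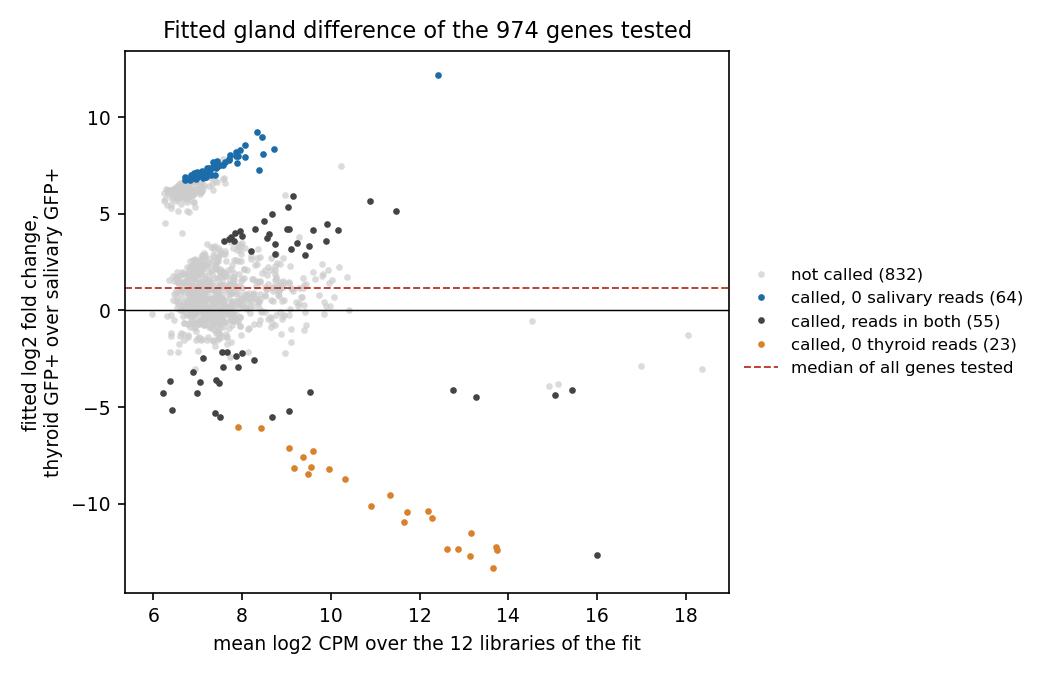
Each of the 974 points is a gene tested, with its mean log2 CPM over the 12 libraries at 9 months on the x axis and its fitted log2 fold change, thyroid GFP+ over salivary GFP+, on the y axis. Called genes with 0 salivary reads (64) form the band between about 7 and 12, called genes with 0 thyroid reads (23) lie at the bottom, and the dashed line marks the median of all genes tested, 1.16. Fitted values of genes at 0 reads in a group depend on the prior count and are no bounds.

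The salivary label was borne out by acinar and secretory genes, most of which had few or 0 reads in thyroid GFP+ cells. Of 29 acinar genes listed, 28 had a row, 17 had reads in the 6 libraries and 10 passed the filter. All 10 of those were called lower, against 5.03% of all genes tested. Their fitted median was -11.26 on the log2 scale (-9.86 with genes at 0 reads set to their bound), against 1.16 over all genes tested (0.66 with bounds). The whole list summed to 507, 135 and 58.1 CPM in thyroid replicates 1 to 3 and 2014, 27890 and 62060 CPM in salivary replicates 1 to 3. Of the 10, 8 had 0 reads in thyroid GFP+ libraries. The whole list held 33, 23 and 5 thyroid reads, too few for any of the 10 to pass the filter through those libraries alone. These counts therefore describe the genes that passed and not the whole list.

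Smgc, which encodes a secreted submandibular gland protein, had 0 reads in all 3 thyroid libraries and 0, 68 and 843 reads in the salivary libraries. It was at least 1061-fold lower in thyroid cells by totals, with an adjusted p of 1.46e-06. Salivary replicates 2 and 3 were high, and replicate 1 was at 0, where 3 reads would be 3021 CPM. Mucl2, a mucin-like secretory gene, had 1, 0 and 1 thyroid reads and 2, 56 and 2503 salivary reads. This was a salivary over thyroid ratio of summed reads of 4472 with a 95% counting interval of 1237 to 36950 (log2 fold change -12.66 with a standard error, SE, of 2.13, adjusted p = 1.46e-06). Salivary replicate 3 held 2503 of the 2561 salivary reads, and without it the ratio was 729 with an interval of 193 to 6160, and the bound for Smgc was 570-fold, for Prol1 25.1-fold and for Car6 8.38-fold. Mucl2 was present in every salivary library, and the groups did not overlap. The submandibular mucin gene Prol1 (also named Muc10) had 0 thyroid reads and 0, 3 and 277 salivary reads, at least 326-fold lower in thyroid cells (adjusted p = 1.21e-05). Bpifa2, a secreted parotid protein, had 0 thyroid reads and 0, 15 and 71 salivary reads (at least 100.1-fold lower, adjusted p = 5.11e-06). Car6, the secreted carbonic anhydrase of saliva, had 0 thyroid reads and 0, 1 and 158 salivary reads (at least 185-fold lower, adjusted p = 3.53e-05). Without salivary replicate 3, Prol1 (-6.69, adjusted p = 0.051), Car6 (-5.18, adjusted p = 0.198) and the ion cotransporter gene Slc12a2 (-2.56, adjusted p = 0.229) lost their calls. Slc12a2 itself had 1, 6 and 1 thyroid reads and 0, 2 and 37 salivary reads (-5.51, SE 0.96, adjusted p = 1.46e-06).

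Not every acinar gene went that way. Aqp5, the apical water channel of acinar cells, was left out by the filter and had 21, 6 and 0 reads in thyroid and 0, 0 and 1 in salivary libraries, with most of them in thyroid replicate 1. Amy1 (amylase) and Lpo (lactoperoxidase) had 0 salivary reads, and Bhlha15, a transcription factor of secretory cells, had 0 reads in all 6 libraries.

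The demilune cell and parotid protein genes Dcpp1, Dcpp2 and Dcpp3 are near-identical neighbours and moved together. Dcpp1 had 0 thyroid reads and 0, 18 and 149 salivary reads, Dcpp2 had 0 and 0, 62 and 351, and Dcpp3 had 0 and 0, 101 and 406. They were at least 194-fold, 481-fold and 590-fold lower in thyroid cells (adjusted p = 1.52e-05, 4.22e-06 and 4.22e-06), and each was high in salivary replicates 2 and 3. Of the 50-base words in the last 200 bases of their transcripts, where 3' sequencing reads fall, 78.8, 68.6 and 78.9% also occur in another Dcpp gene. The authors' counting could therefore split reads between the copies, and their separate values are uncertain. The promoter windows, from 250 bases before to 50 after the start site, are shown because these 3 genes and Smgc are among the 10 lowest fitted changes named, and they show how alike the copies are. They are RefSeq sequences on GRCm38.p6, each on the + strand and written 5' to 3', at chr17:23880626-23880925, chr17:23898472-23898771, chr17:23917208-23917507 and chr15:91838078-91838377, with the motif TATAA in capitals. The files' own build is mm9, so these positions are those of the sequence source and of no deposited value.
Dcpp1: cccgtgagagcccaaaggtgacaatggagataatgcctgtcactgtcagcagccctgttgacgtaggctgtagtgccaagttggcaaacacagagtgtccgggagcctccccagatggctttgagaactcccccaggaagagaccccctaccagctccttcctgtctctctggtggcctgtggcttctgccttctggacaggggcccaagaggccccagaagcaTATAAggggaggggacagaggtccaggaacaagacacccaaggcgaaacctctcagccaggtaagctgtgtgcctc
Dcpp2: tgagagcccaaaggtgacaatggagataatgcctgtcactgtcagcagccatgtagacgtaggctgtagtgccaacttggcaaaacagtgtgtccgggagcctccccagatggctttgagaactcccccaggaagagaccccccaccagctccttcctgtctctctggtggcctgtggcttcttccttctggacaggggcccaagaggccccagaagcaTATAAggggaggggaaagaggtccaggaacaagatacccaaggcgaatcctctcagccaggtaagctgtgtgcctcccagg
Dcpp3: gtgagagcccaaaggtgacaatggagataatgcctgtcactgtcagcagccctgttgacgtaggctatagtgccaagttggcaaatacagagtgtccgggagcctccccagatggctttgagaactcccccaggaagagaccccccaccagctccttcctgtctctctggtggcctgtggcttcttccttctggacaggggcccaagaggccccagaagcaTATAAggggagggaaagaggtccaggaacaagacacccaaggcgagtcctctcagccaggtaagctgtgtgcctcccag
Smgc: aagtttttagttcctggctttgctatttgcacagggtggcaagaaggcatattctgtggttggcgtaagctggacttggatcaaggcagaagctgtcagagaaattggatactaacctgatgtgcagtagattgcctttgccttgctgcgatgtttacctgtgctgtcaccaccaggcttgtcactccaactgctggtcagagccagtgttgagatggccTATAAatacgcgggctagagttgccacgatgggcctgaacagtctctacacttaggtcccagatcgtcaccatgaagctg
In pairwise alignment the Dcpp windows were 96.9 to 97.7% identical. The motif TATAA was found once in each of the 4 windows on the strand of the gene, beginning at -26, -31 and -29 in Dcpp1, Dcpp2 and Dcpp3 and at -30 in Smgc, counted from the start site, and on the other strand in none of them. Over 27025 promoter windows of that length, 18.2% held it on the strand of the gene and 25.5% on either strand. A match describes these letters and is no evidence that a factor binds there.

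Duct genes were lower in thyroid GFP+ cells as well. Of 29 duct genes, 24 had reads and 13 passed the filter. All 13 were called lower, against 5.03% of all genes tested, with a median of -8.11 (-6.27 with bounds). Of the 13, 12 had 0 reads in thyroid GFP+ libraries. The whole list held 5, 11 and 4 thyroid reads, too few for any of the 13 to pass the filter through those libraries alone. This count too describes the genes that passed. Klk1, the tissue kallikrein stored in granular duct cells, had 0 thyroid reads and 2, 59 and 359 salivary reads, which is 2014, 5002 and 4531 CPM. It was at least 489-fold lower (adjusted p = 4.22e-06), and it was the only 1 of the 23 genes at 0 in thyroid with reads in all 3 salivary libraries. The kallikrein-related Klk1b11 had 0 thyroid reads and 0, 6 and 17 salivary reads (at least 26.8-fold lower), Klk1b5 had 0 and 0, 3 and 17 (at least 23.3-fold lower), and Klk1b22 had 0 and 0, 3 and 16 (at least 22.1-fold lower), with adjusted p values of 1.46e-06, 1.46e-06 and 4.22e-06. The secretoglobin genes Scgb2b27 and Scgb1b27 had 0 thyroid reads and 0, 8 and 507 and 0, 8 and 440 salivary reads, at least 599.5-fold and 521.5-fold lower (67.0-fold each without salivary replicate 3), and Scgb2b26, singled out after its values were seen, had 0 thyroid and 123 salivary reads in all. Of the 3' end words of Klk1b22, 34.4% also occur in Klk1b21 or Klk1b24, so members of this family are less certain singly.

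The acinar and duct counts were again 10 and 13 with each other scaling in edgeR, without the libraries under 10000 reads, and without ribosomal RNA and mitochondrial rows. They were 6 and 6 without salivary replicate 3, 8 and 10 with DESeq2 and 9 and 7 without a filter. With the 6 GFP+ libraries fitted alone, 1 gene of each list was tested and called lower.

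**Figure D3:**
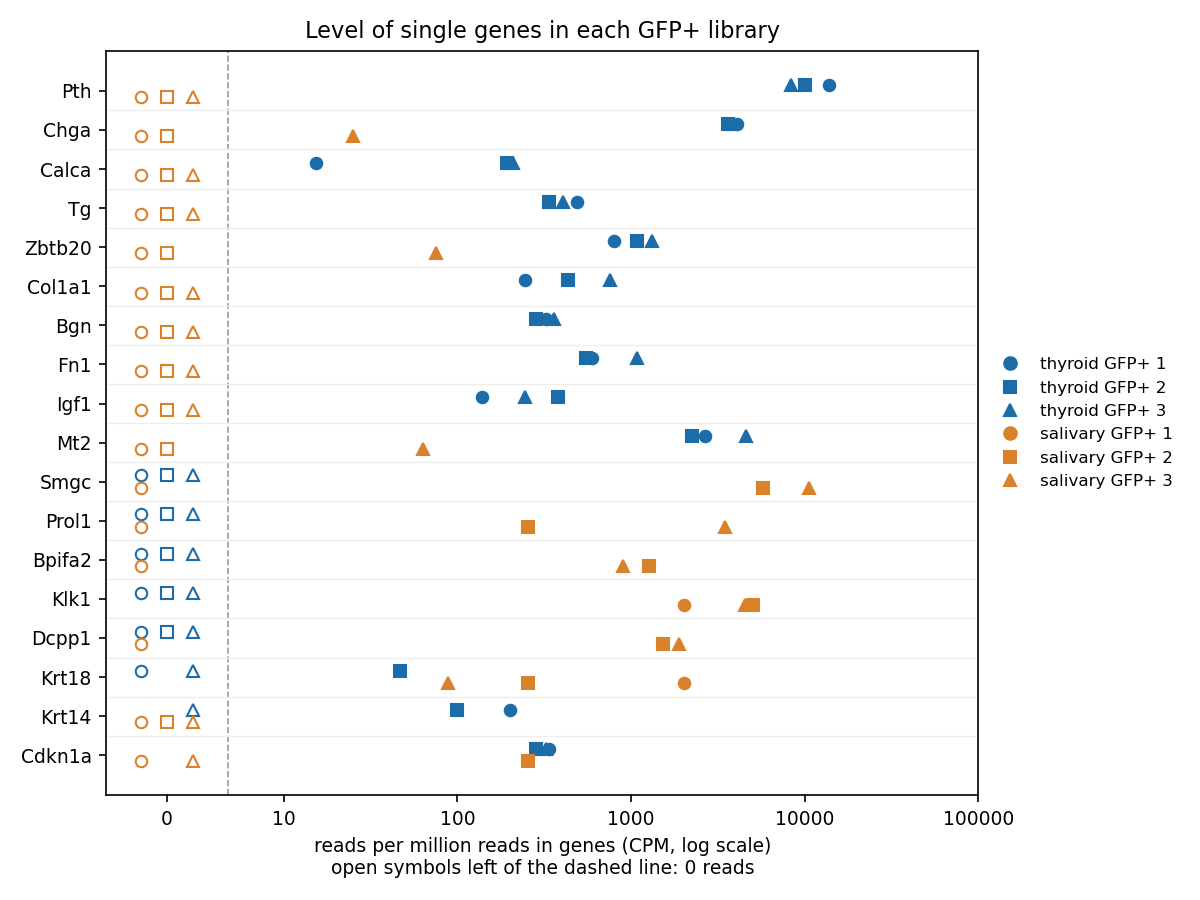
Points give the level of 18 genes in each of the 3 thyroid GFP+ libraries (blue) and the 3 salivary GFP+ libraries (orange) in CPM on a log scale, with 0 reads as open symbols left of the dashed line. Pth stood at 8349 to 13850 CPM in thyroid and at 0 reads in salivary libraries, and Smgc, Prol1, Bpifa2, Klk1 and Dcpp1 at 0 reads in the thyroid libraries.

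On the thyroid side, the clearest endocrine signal came from the parathyroid and neuroendocrine genes and not from the follicular ones. Pth, which encodes parathyroid hormone, had 902, 1697 and 718 reads in thyroid GFP+ libraries, an average of 10720 ± 2829 CPM (SD, n = 3), and 0 reads in all 3 salivary GFP+ libraries. It was at least 317-fold higher by totals and at least 86.1-fold higher by TMM (adjusted p = 0.00108), the largest bound among the genes called higher, and it kept its call in each of the 24 alternative fits. Its bound by totals was 44.0-fold without salivary replicate 3. Of 8 parathyroid genes, 6 had reads, 2 passed the filter and 1, Pth, was called (50%, against 9.55% of all genes tested called higher). Both genes tested had 0 salivary GFP+ reads, so neither could have passed the filter through those libraries. This share therefore describes genes that passed through other libraries, among them the thyroid ones. Gcm2, the defining parathyroid transcription factor, had 3, 0 and 0 thyroid reads, and the calcium-sensing receptor gene Casr had 0, 2 and 2. The summed parathyroid level was 14270, 10380 and 8651 CPM in thyroid and 0 reads in salivary libraries. The part of parathyroid cells in the other differences was not tested.

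Chga, the chromogranin of secretory granules that C cells and parathyroid cells both make, had 264, 617 and 321 thyroid reads (3804 ± 224 CPM, SD, n = 3) and 0, 0 and 2 salivary reads. The ratio of summed reads was 172 with a 95% counting interval of 47.5 to 1423 (log2 fold change 5.66, SE 1.65, adjusted p = 0.0102), and the groups did not overlap. With salivary replicate 3 left out the salivary libraries were at 0 and the bound by totals was 15.9-fold, and without salivary replicate 2 the call was lost (5.41, adjusted p = 0.0832). Calca, which encodes calcitonin, had 1, 33 and 18 thyroid reads and 0 salivary reads, low in thyroid replicate 1, and was not called (at least 4.96-fold by totals, adjusted p = 0.169). Of 11 C cell genes, 6 had reads, 2 passed the filter and 1 was called higher (50%, against 9.55% of all genes tested). The whole list held 0, 0 and 2 salivary reads, so no member could have passed the filter through the salivary GFP+ libraries alone. That share too describes genes that passed through other libraries.

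The thyroid label rests on thyroglobulin among the follicular genes. Tg, the precursor of thyroid hormone, had 32, 57 and 35 reads in thyroid GFP+ libraries, which is 411 ± 78.4 CPM (SD, n = 3), and 0 in salivary GFP+ libraries. Its groups did not overlap and its bound was 11.8-fold by totals, but it was not called (7.48, SE 3.05, adjusted p = 0.0746). It was called with the 6 GFP+ libraries alone (adjusted p = 0.00767), with DESeq2 (0.00554), with library totals (0.00153) and without ribosomal RNA rows (0.0256). Of 15 hormone synthesis genes, 12 had reads and 2 passed the filter, with 0 called. Beside Tg the gene tested was Slc26a7, with 10 thyroid reads and 1 salivary read in all (-0.28, adjusted p = 0.924). The iodide transporter gene Slc5a5 had 1, 0 and 0 thyroid reads and 0 salivary reads, and the summed level of the list was 768, 570 and 581 CPM in thyroid against 1 read in salivary replicate 1.

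The transcription factors that specify follicular cells were at the edge of detection. Pax8 had 0 reads in all 6 libraries, Nkx2-1 had 3, 1 and 0 and Foxe1 had 4, 1 and 0 reads in thyroid libraries, each with 0 salivary reads. The 0 thyroid reads of Pax8 still allow a level of up to 9.34 CPM. Zbtb20, a zinc finger repressor expressed in many tissues, had 52, 183 and 114 thyroid reads and 0, 0 and 6 salivary reads (2.32, SE 0.98, adjusted p = 0.0831). It passed the test with DESeq2 (4.40, adjusted p = 0.0049), without TMM (4.12, adjusted p = 8.93e-05), with the 6 GFP+ libraries alone (1.98, adjusted p = 0.0309), with a stricter filter (2.12, adjusted p = 0.0345), without ribosomal RNA rows (2.37, adjusted p = 0.0265) and without salivary replicate 3 (8.98, adjusted p = 0.0444).

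**Figure D4:**
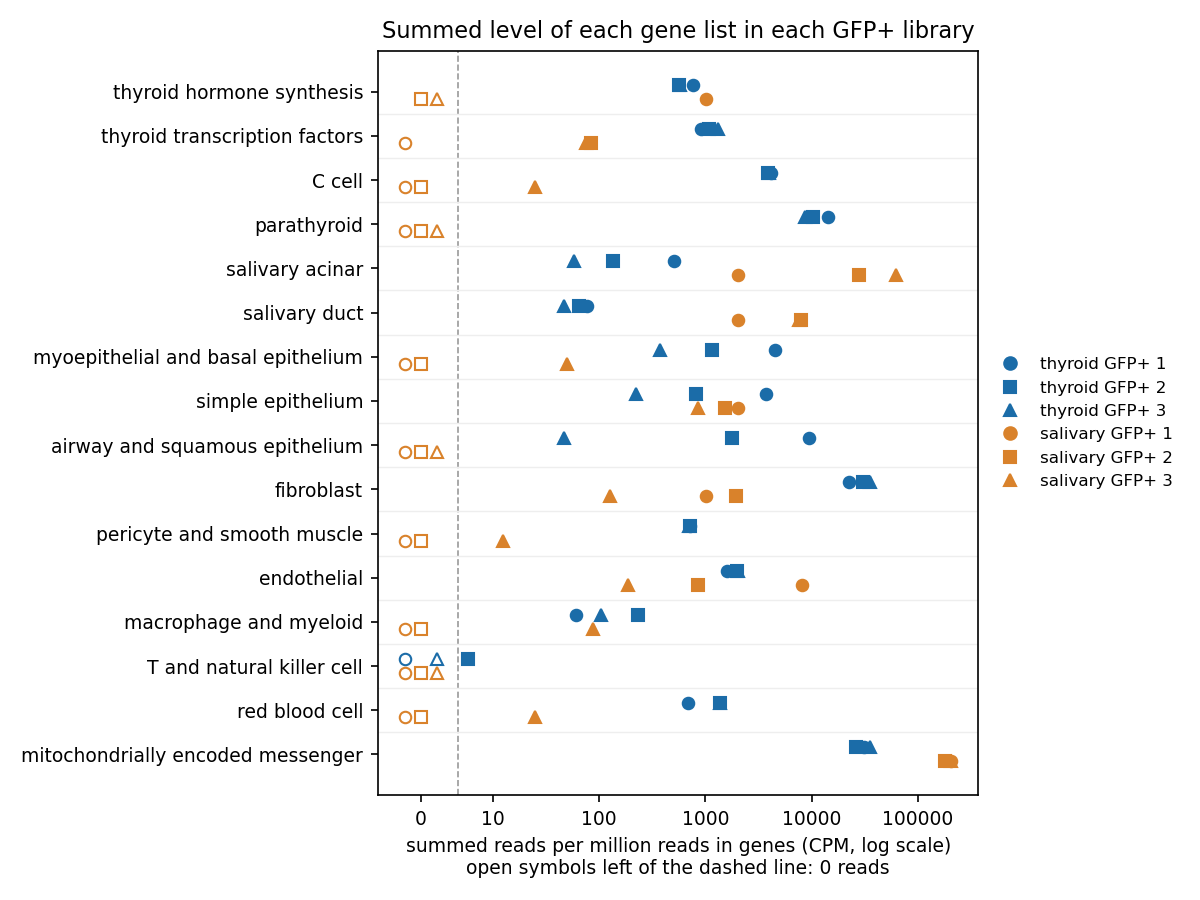
Points give the summed CPM of each gene list in each thyroid GFP+ library (blue) and salivary GFP+ library (orange) on a log scale, with sums of 0 reads as open symbols left of the dashed line. Fibroblast sums were 22300 to 35730 CPM in thyroid and 126 to 1950 CPM in salivary libraries, whereas the acinar and duct sums ran the other way.

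Most connective tissue genes that passed the filter were called higher in thyroid GFP+ cells. Of 25 fibroblast genes, all 25 had reads, 22 passed the filter and 18 were called higher with 0 lower, which is 81.8% of those tested against 9.55% of all genes tested. Of the 22, 10 had 0 reads in salivary GFP+ libraries. The whole list held 1, 23 and 10 reads in salivary replicates 1 to 3. That is too few for any member to pass the filter through those libraries alone. The count and its share therefore describe genes that passed through other groups, among them the thyroid GFP+ libraries where they were high. They do not rank this list against others. Summed over all 25 genes, tested or not, the list stood at 22300, 30560 and 35730 CPM in thyroid and 1007, 1950 and 126 CPM in salivary replicates 1 to 3. The fitted median of the 22 genes tested was 5.26 on the log2 scale, or 2.72 with genes at 0 reads set to their bound, against 1.16 and 0.66 over all genes tested. The remaining 4, Vim, Ly6a, Pdgfra and Fbn1, had fitted values of 2.75, 2.70, 3.32 and 2.54 with adjusted p of 0.0544 to 0.102.

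Col1a1, a chain of type I collagen, had 16, 74 and 65 reads in thyroid libraries (479 ± 258 CPM, SD, n = 3) and 0 reads in salivary libraries, at least 14.8-fold higher by totals and 4.02-fold by TMM (adjusted p = 0.0138). Its partner chain Col1a2 had 98, 348 and 155 thyroid reads and 0, 1 and 0 salivary reads, a ratio of 172 with a 95% counting interval of 30.8 to 6808 (5.34, SE 1.37, adjusted p = 0.00263). Both chains were present in every thyroid library, and their groups did not overlap. Fn1, fibronectin, had 39, 94 and 93 thyroid reads and 0 salivary reads (at least 21.6-fold by totals, a log2 bound of 2.55 by TMM, adjusted p = 0.00348). Abca8a, a lipid transporter gene of fibroblasts, had 50, 180 and 140 thyroid reads and 0 salivary reads (at least 35.3-fold, adjusted p = 0.000662). Dpt, dermatopontin of the collagen matrix, had 58, 247 and 129 thyroid reads and 0, 1 and 1 salivary reads, a ratio of 62.1 with an interval of 17.1 to 515 (3.96, SE 1.15, adjusted p = 0.0102). The intermediate filament gene Vim, at 23, 170 and 112 thyroid reads and 0, 3 and 0 salivary reads, just missed the threshold (2.75, SE 1.04, adjusted p = 0.0544). All of these genes were higher in each thyroid library than in any salivary library.

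Other genes among the highest fitted changes include matrix enzymes. Has1, a hyaluronan synthase, had 34, 189 and 87 thyroid reads and 0 salivary reads (at least 29.6-fold, adjusted p = 0.00152). The matrix protease gene Adamts5 had 24, 101 and 73 (at least 18.9-fold, adjusted p = 0.0078), and Serpinh1, the collagen chaperone, had 21, 149 and 47 (at least 20.7-fold, adjusted p = 0.00842), both with 0 salivary reads. Sparcl1, a secreted matrix protein (30, 113 and 65 thyroid reads, at least 19.8-fold, adjusted p = 0.00965), Plpp3, a lipid phosphatase (44, 116 and 77, at least 22.6-fold, adjusted p = 0.0079), and Anxa2, a membrane-binding annexin (81, 58 and 41, at least 17.2-fold, adjusted p = 0.00544), were also at 0 in every salivary library. Anxa2 was highest in thyroid replicate 1, while the other 5 were highest by reads in replicate 2, the deepest library.

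Many of these calls needed the deepest salivary library. Without salivary replicate 3, 2 of 23 fibroblast genes tested were called higher, and Col1a1 (7.84, adjusted p = 0.106), Col1a2 (4.53, adjusted p = 0.0511), Fn1 (8.46, adjusted p = 0.0629), Dpt (4.06, adjusted p = 0.0737), Plpp3 (8.47, adjusted p = 0.0771), Anxa2 (8.31, adjusted p = 0.0719), Sparcl1 (8.22, adjusted p = 0.0883), Adamts5 (8.17, adjusted p = 0.085) and Serpinh1 (8.13, adjusted p = 0.087) lost their calls. The median of the 1313 genes tested in that fit was 5.83, so the positive sign of these values is shared with the median gene. Col1a2 and Dpt lay below that median. The count was 2 of 25 without a filter, 8 of 22 without thyroid replicate 2, 10 of 22 without thyroid replicate 3, 12 of 23 without salivary replicate 2 and 17 of 24 without the libraries under 10000 reads, and 0 were called lower in any of these. The ratios of summed reads also moved, to 23.9 with an interval of 4.28 to 946 for Col1a2 and to 17.3 with an interval of 3.08 to 684 for Dpt without salivary replicate 3.

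Of 8 inflammation and NF-kB genes tested from a list of 18, 3 were called higher (37.5%, against 9.55% of all genes tested) and 0 lower, and 5 of the 8 had 0 salivary reads. The whole list had 0 reads in salivary replicate 1, so no member could have passed the filter through the salivary GFP+ libraries alone. Cxcl1, a chemokine, had 84, 167 and 126 thyroid reads and 0, 0 and 3 salivary reads, a ratio of 36.0 with an interval of 12.2 to 175 (3.45, SE 1.10, adjusted p = 0.0212). The complement gene C3 had 22, 86 and 45 thyroid reads (at least 14.6-fold, adjusted p = 0.0157) and the cytokine gene Il6 had 20, 58 and 29 (at least 10.2-fold, adjusted p = 0.0301), both with 0 salivary reads. Both remaining salivary libraries were at 0 for Cxcl1 when replicate 3 was left out, and its bound by totals was 5.001-fold. These genes were present in each thyroid library, and without salivary replicate 2 all 3 calls were lost (adjusted p = 0.0561 to 0.109).

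Of 7 genes of the IGF axis tested from a list of 9, 3 were called higher (42.9%, against 9.55% of all genes tested) and 0 lower, and 3 of the 7 had 0 salivary reads. This list too had 0 reads in salivary replicate 1, so no member could have passed the filter through the salivary GFP+ libraries alone. Igf1, the growth factor, had 9, 65 and 21 thyroid reads and 0 salivary reads (at least 9.07-fold by totals, a log2 bound of 1.30 by TMM, adjusted p = 0.0421). The binding protein gene Igfbp5 had 45, 244 and 210 thyroid reads and 0, 1 and 1 salivary reads, a ratio of 71.4 with an interval of 19.7 to 591.5 (4.20, SE 1.22, adjusted p = 0.0102). Igfbp4 had 76, 369 and 257 thyroid reads and 0, 6 and 0 salivary reads (2.88, SE 1.05, adjusted p = 0.0458). Leaving out salivary replicate 3 ended the calls of Igf1 (adjusted p = 0.184), Igfbp5 (0.0667) and Igfbp4 (0.172), and the ratio for Igfbp5 was then 19.9 with an interval of 3.55 to 786.

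Of 10 antioxidant and selenoprotein genes tested from a list of 20, 3 were called higher (30%, against 9.55% of all genes tested) and 0 lower, and 3 of the 10 had 0 salivary reads. Mt2, a metallothionein, had 174, 380 and 394 thyroid reads and 0, 0 and 5 salivary reads (4.17, SE 1.25, adjusted p = 0.0138). Gstm1, a glutathione transferase, had 32, 71 and 47 thyroid reads (at least 14.3-fold, adjusted p = 0.0151) and Gpx3, a secreted glutathione peroxidase, had 14, 79 and 27 (at least 11.4-fold, adjusted p = 0.0301), both with 0 salivary reads. Without salivary replicate 2 the adjusted p was 0.0994 for Mt2, 0.0535 for Gstm1 and 0.0916 for Gpx3. Lpl, lipoprotein lipase, the only 1 of 10 adipocyte genes tested, had 18, 69 and 46 thyroid reads and 0 salivary reads (at least 12.7-fold, adjusted p = 0.0213). Of the defining adipocyte markers, Adipoq had 0 reads in all 6 libraries and Plin1 had 0, 0 and 1 in thyroid and 0 in salivary libraries, and the list summed to 276 to 558 CPM in thyroid and 0 reads in salivary libraries. Lpl lost its call without salivary replicate 2 (adjusted p = 0.071) or 3 (0.126).

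General epithelial genes did not follow the salivary genes as a block. Of 20 simple epithelium genes, 6 passed the filter, with 3 called lower (50%, against 5.03% of all genes tested), 0 higher and a median of -2.15. Krt18, a keratin of simple epithelia, had 0, 8 and 0 thyroid reads and 2, 3 and 7 salivary reads (-4.26, SE 0.91, adjusted p = 9.96e-05), and its groups did not overlap. The epithelial transcription factor gene Ehf had 11, 8 and 0 against 0, 5 and 8 reads (-2.91, SE 0.89, adjusted p = 0.0157), and the surface glycoprotein gene Cd24a had 12, 13 and 6 against 0, 5 and 12 (-2.56, SE 0.82, adjusted p = 0.0218), in thyroid and salivary libraries in that order. Both overlapped between groups, and both calls were lost with DESeq2 (-0.91, adjusted p = 0.542 for Ehf and -0.58, adjusted p = 0.656 for Cd24a), as was that of Krt18 (-2.32, adjusted p = 0.163). Leaving out salivary replicate 3 gave an adjusted p of 0.164 for Ehf and 0.225 for Cd24a. Epcam, an adhesion molecule of most epithelia, had 15, 13 and 3 thyroid reads and 0, 3 and 4 salivary reads (-1.37, SE 0.96, adjusted p = 0.325), and its sign turned with DESeq2 (0.65) and with library totals (0.24).

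Stratified epithelial keratins were read in thyroid GFP+ replicates 1 and 2. Krt4, a keratin of mucosal squamous epithelium, had 230, 111 and 2 thyroid reads and 0 salivary reads (at least 32.7-fold higher, adjusted p = 0.00319). This call was lost without the libraries under 10000 reads (9.47, adjusted p = 0.391), without ribosomal RNA rows (9.26, adjusted p = 0.285), without salivary replicate 3 (9.34, adjusted p = 0.0676) and without TMM (9.83, adjusted p = 0.0966). The squamous partner keratin Krt13, which the filter left out, had 226, 101 and 1 thyroid reads. Of the 14 airway and squamous genes, 6 had reads, and their sum was 9445, 1786 and 46.5 CPM in thyroid and 0 reads in salivary libraries, with the airway secretoglobin Scgb1a1 and the ciliated cell gene Foxj1 at 0 in all 6. The basal keratin genes Krt5 (38, 32 and 0), Krt14 (13, 17 and 0) and Krt15 (111, 71 and 2) had the same unequal pattern over the thyroid libraries and 0 salivary reads, and none was tested. The myoepithelial and basal list summed to 4546, 1151 and 372 CPM in thyroid and to 0, 0 and 50.5 CPM in salivary libraries, with 0 of 3 genes tested called. What the squamous signal contributes to other differences was not tested.

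Of 20 endothelial genes, 11 passed the filter, 0 were higher and 1 was lower (9.09% called, against 14.6% of all genes tested), with a median of 0.13. The adhesion gene Esam was that gene, with 0, 4 and 0 thyroid reads and 4, 0 and 0 salivary reads (-3.67, SE 1.30, adjusted p = 0.0394). Its salivary reads all lay in the library of 993 reads, and without that library the value turned to 2.68 (adjusted p = 0.755). Hbb-bt, a beta globin, had 9, 73 and 41 thyroid reads and 0 salivary reads (at least 11.7-fold, adjusted p = 0.0357) and was the only 1 of 4 red cell genes tested that was called (25.0% higher, against 9.55% of all genes tested). Its paralog Hbb-bs had 22, 128 and 52 against 0, 0 and 1 (3.80, adjusted p = 0.0658). Of the 3' end words of Hbb-bs, 50% also occur in Hbb-bt, while 0 of those of Hbb-bt occur in another gene. Reads of Hbb-bs could thus have been counted to Hbb-bt, so the separate values of both are uncertain. Without salivary replicate 3 Hbb-bt lost its call (adjusted p = 0.151). Globin and other red cell genes summed to 691, 1380 and 1372 CPM in thyroid and 0, 0 and 25.2 CPM in salivary libraries, and their part in other results was not tested. The red cell list held 0, 0 and 2 salivary reads, so no member could have passed the filter through the salivary GFP+ libraries alone. None of the 20 macrophage, 12 T and natural killer cell and 12 B and plasma cell genes passed the filter. The myeloid genes Csf1r and Adgre1 had 0 reads in all 6 libraries, and C1qa had 1 salivary read.

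Mitochondrially encoded messengers were lower in thyroid GFP+ cells. They made up 3.11, 2.62 and 3.52% of thyroid reads and 20.3, 17.9 and 20.5% of salivary reads, and the groups did not overlap. Of the 13 genes, mt-Co3, mt-Atp8 and mt-Nd4l had 0 reads in all 6 libraries, and mt-Co2 and mt-Atp6 had 0 thyroid reads and 3 and 2 salivary reads, so the share is carried by the other messengers, and why these had almost no reads was not tested. Of 13 such genes, 6 passed the filter and 4 were called lower (66.7%, against 5.03% of all genes tested). Their median was -4.12 against 1.16 for all genes tested. Cytochrome b (mt-Cytb) averaged 5197 ± 354 CPM in thyroid and 44670 ± 5813 CPM in salivary libraries (SD, n = 3 each, log2 fold change -4.39, SE 1.52, adjusted p = 0.0337). The complex I subunit mt-Nd5 averaged 1448 ± 157 and 11840 ± 668 CPM (-4.47, SE 1.54, adjusted p = 0.0337), and mt-Nd4 averaged 8186 ± 1805 and 54010 ± 9315 CPM (-4.13, SE 1.49, adjusted p = 0.0427). mt-Co1 averaged 1313 ± 166 and 8899 ± 222 CPM (-4.12, SE 1.51, adjusted p = 0.0458), but nuclear copies of it such as Gm29216 share all its 3' end words. These calls were fragile: 0 of 6 passed with the replicate number as a block or without salivary replicate 2 or 3 or thyroid replicate 2 or 3, and all 6 passed with library totals (median -2.74). Nuclear genes of oxidative phosphorylation had 22 tested, 0 called and a median of -0.33, in libraries where their sum was 4547 to 8186 CPM in thyroid and 0 to 2459 CPM in salivary cells. With library totals 5 of the 22 were called higher, against 688 of all 974 genes.

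The quiescence and proliferation lists held 0 calls with TMM, but this depended on the fit. With library totals 4 of 5 quiescence and 1 of 2 proliferation genes were called higher, against 688 of all 974 genes. DESeq2 called 2 of 16 and 1 of 11 genes entered higher, against 525 of 14461 genes entered. With the 6 GFP+ libraries alone 1 of 4 quiescence genes was called higher. The values that follow are from the fit with TMM. Of 5 quiescence and cyclin-dependent kinase inhibitor genes tested from a list of 16, 0 were called, with a median of 1.27. Cdkn1a, the p21 gene, had 22, 48 and 28 thyroid reads and 0, 3 and 0 salivary reads (315.1 ± 29.4 and 84.8 ± 147 CPM, SD, n = 3 each, 1.27, SE 1.08, adjusted p = 0.423). The pluripotency and barrier factor gene Klf4 had 64, 176 and 110 against 0, 2 and 3 (2.46, SE 1.01, adjusted p = 0.0777), and the antiproliferative gene Btg2 had 24, 98 and 23 against 0, 0 and 15 (-0.22, SE 0.88, adjusted p = 0.894). Of the 16 proliferation genes, 2 passed the filter and 0 were called, and Mki67, the usual proliferation marker, had 0 reads in all 6 libraries. The D-type cyclin genes Ccnd2, with 34, 42 and 22 against 0, 1 and 0 reads (2.95, SE 1.38, adjusted p = 0.114), and Ccnd1, with 29, 11 and 7 against 0, 0 and 8 (-0.69, SE 0.84, adjusted p = 0.595), were the genes tested. Of 11 histone genes, 7 had reads and 1, H3f3b, was tested (0.50, SE 0.87, adjusted p = 0.735).

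Of 6 stem and progenitor genes tested from a list of 14, 1 was higher and 2 lower (50% called, against 14.6% of all genes tested). Thy1, also a fibroblast surface protein, had 12, 49 and 29 thyroid reads and 0 salivary reads (at least 8.59-fold by totals, a log2 bound of 1.22 by TMM, adjusted p = 0.0397). Sox9, a transcription factor of gland progenitors and cartilage, had 8, 19 and 15 thyroid reads and 0, 1 and 18 salivary reads. By CPM it averaged 136 ± 33.5 in thyroid and 104 ± 115 in salivary libraries, the reverse of its fitted value (-2.20, SE 0.78, adjusted p = 0.0394), and it turned to 0.82 (adjusted p = 0.677) without salivary replicate 3, where the median of all genes tested was 5.83. Both Thy1 (adjusted p = 0.176) and Sox9 lost their calls without that library, and Cd24a, given above, was the other lower gene. Kit, the stem cell factor receptor, and Prom1 had 0 reads in all 6 libraries.

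The immediate early list had 14 genes tested and 0 called, with a median of 0.99 and a sum of 11320, 13560 and 13330 CPM in thyroid and 0, 2543 and 2676 CPM in salivary libraries. Egr1 had 84, 389 and 165 against 0, 6 and 29 reads (0.72, SE 0.98, adjusted p = 0.649) and Junb had 87, 267 and 191 against 0, 2 and 13 (1.77, SE 0.99, adjusted p = 0.201). Both encode transcription factors that growth factors and stress induce rapidly. Heat shock (8 tested, median -0.03), secretory pathway and unfolded protein response (10 tested, median 1.06), interferon and MHC class I (7 tested, median -0.22) and ribosomal protein genes (47 tested, median 1.26) had 0 called in either direction with TMM. These counts depended on the fit. With library totals 688 of all 974 genes were called higher, among them 11 of 14 immediate early and 45 of 47 ribosomal protein genes. That scaling also gave 4 of 8 heat shock, 9 of 10 secretory pathway and 3 of 7 interferon genes higher. DESeq2 called 6 of 18 immediate early and 30 of 54 ribosomal protein genes entered higher, against 525 of 14461 genes entered. The TGF-beta and BMP list had 1 of 7 called (14.3%, against 14.6% of all genes tested), the BMP target Id2. Id2 was lower at 5, 10 and 3 thyroid reads against 0, 5 and 6 salivary reads (-2.91, SE 0.91, adjusted p = 0.0188), with overlapping groups. Its call was lost with DESeq2 (-0.87, adjusted p = 0.466) and without salivary replicate 3 (adjusted p = 0.139). With library totals 6 of the 7 genes were called higher and 0 lower. Wnt genes had 0 of 3 called with TMM and 3 of 3 called higher with library totals. Ctnnb1, beta-catenin, had 21, 76 and 45 against 0, 0 and 8 reads (0.62, adjusted p = 0.664 with TMM). The nuclear RNA Malat1, abundant in both glands, had 1703, 4717 and 2882 against 23, 140 and 1412 reads (-0.57, SE 1.33, adjusted p = 0.806), with a sign that turned with library totals (0.75).

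The same gland difference was estimated in the GFP- fractions, which share no library with the GFP+ ones. Both came from the same fit, with a common filter, scaling and estimate of spread, so calls shared by the fractions are not independent. Whether same-number GFP+ and GFP- libraries of a gland are paired was not checked. There 138 of 974 genes were called (14.2%), 96 higher (9.86%) and 42 lower (4.31%) in thyroid cells. Of the genes called in GFP+ cells 66 were also called in GFP- cells, which is 46.5% of the GFP+ and 47.8% of the GFP- calls, 33 higher and 33 lower, all in the same direction in both fractions. Salivary secretory genes were far lower in thyroid cells in both fractions. In GFP- cells Smgc had 0, 1 and 0 thyroid reads and 79, 694 and 4989 salivary reads, Klk1 had 0 and 58, 180 and 2958, and Mucl2 had 0, 3 and 0 and 6831, 4244 and 8084. In GFP- cells Pth had 30, 4607 and 2310 thyroid reads and 5, 3 and 0 salivary reads (6.89, adjusted p = 0.00237). Tg had 4, 711 and 1176 against 7, 3 and 1 (4.73, adjusted p = 0.00186) and Calca 3, 322 and 399 against 0 (10.04, adjusted p = 2.07e-07), so these 2 endocrine genes passed the test in GFP- and not in GFP+ cells. The difference between the fractions was not past the threshold for Tg (2.75, SE 4.51, adjusted p = 0.897), and for Calca, at 0 salivary reads in both fractions, it could not be estimated. Tg had 0 salivary GFP+ reads, so its value of 2.75 depends on the prior count. The GFP+ bound of Tg by TMM was 1.69 on the log2 scale, under the 4.73 in GFP- cells, so the sign of its difference is not set by the reads.

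**Figure D5:**
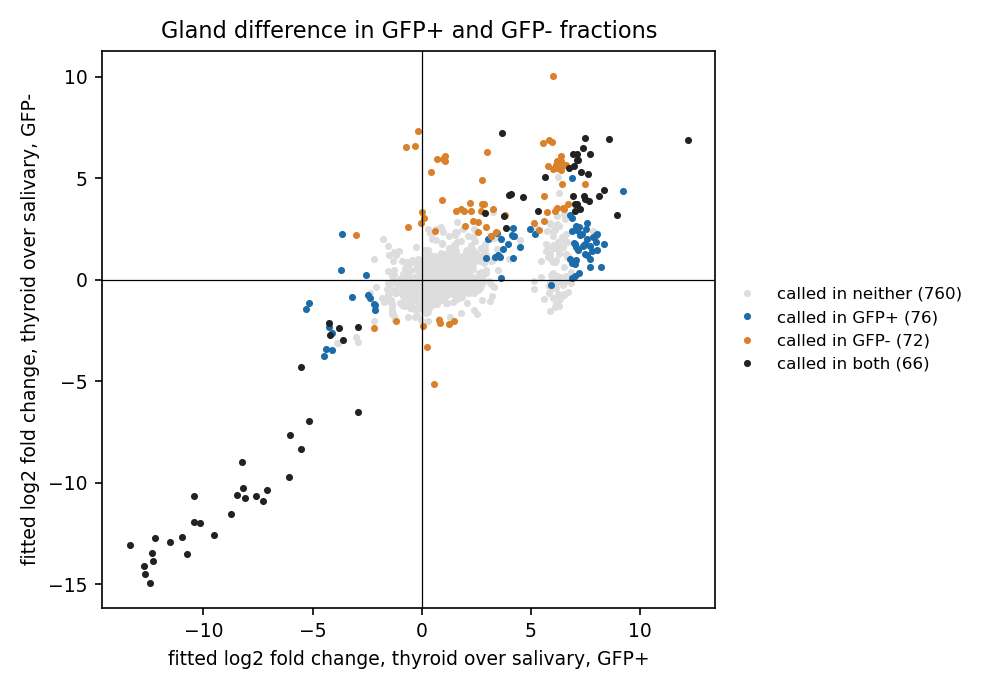
Each point is a gene tested, with its fitted log2 fold change, thyroid over salivary, in the GFP+ fractions on the x axis and in the GFP- fractions on the y axis. The 66 genes called in both lie at the lower left (33) and the upper right (33). Fitted values of genes at 0 reads in a group depend on the prior count.

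A test of the difference between the fractions, the interaction of gland and GFP status, called 0 of 974 genes (0.0%) with edgeR, where 89 had an unadjusted p under 0.05, and 0 with DESeq2, where 198 did. Collagen Col1a1 had 16, 74 and 65 thyroid against 0 salivary reads in GFP+ cells, and 0, 12 and 23 against 3, 0 and 0 in GFP- cells, an interaction of 6.06 (SE 3.59, adjusted p = 0.639). With 0 salivary GFP+ reads, the size of that value depends on the prior count. The smallest adjusted p was 0.103, shared by 4 genes chosen after their values were seen, Fxyd3 (5.69), Emcn (-5.25), Esam (-5.95) and Tuba1b (-7.27). Fxyd3, a regulator of the sodium pump, had 32, 14 and 0 thyroid and 0, 0 and 3 salivary reads in GFP+ cells, and 2, 0 and 0 thyroid and 4, 6 and 23 salivary reads in GFP- cells (SE 1.49). It alone was called without the libraries under 10000 reads (8.09, adjusted p = 0.0101) and without thyroid GFP- replicate 1 (8.06, adjusted p = 0.00145).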

How the data were processed

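Freshly sorted cells of H2B-GFP mice were profiled by 3' mRNA sequencing (QuantSeq), with RNeasy columns and DNase I for RNA, per the labels' protocols. The authors deposited raw counts, whole-number reads per Ensembl gene, 1 table per library. The submitters' processing notes name bcl2fastq and the build mm9 and no versions. The aligner, the counter and the use of strand are not given in the sources used here. Summary rows were left out, among them the no-feature row with 23.3 to 31.5% of thyroid and 22.3 to 64.8% of salivary GFP+ reads. Of 47643 gene identifiers, 47224 matched a symbol of GENCODE vM21.

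The 12 libraries at 9 months were fitted in 4 groups with edgeR 4.0.16 (R 4.3.3): TMM factors (1.5 to 1.56 in thyroid and 0.269 to 7.48 in salivary GFP+ libraries), filterByExpr (minimum 10, total 15), robust quasi-likelihood and Benjamini-Hochberg adjustment at 0.05 over 974 genes. The biological coefficient of variation was 0.479. Mean ± SD are in CPM over the libraries without TMM. Intervals at 95% and the limit of 3 reads cover counting error only. Alternatives changed 1 choice each, except DESeq2 1.42.0, which also brought its own scaling and filter, and the script was tested on simulated data. No replicate libraries held identical values, and pairs of replicates differed beyond sampling noise (lowest chi-square over its degrees of freedom 2.43).

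The comparison, gene lists and tests were chosen with earlier results of these data known. The text names, of called genes with 20 reads or more, the 10 highest and 10 lowest by fitted change, leaving out predicted genes, pseudogenes, ribosomal, mitochondrial and receptor segment genes. Also named are up to 4 called members of a list by adjusted p, or up to 2 abundant ones, and a fixed marker set. Lists with 0 called members that are given by counts name no gene. Other markers are given as reads with no test. Results of some single genes are not reported here.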

Additional observations from a re-analysis of the deposited data

How the results depend on the processing

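The limits were depth and scaling. Salivary GFP+ replicate 3 held most salivary reads, and the median of all genes tested was 1.16 and, with library totals, 2.86 (974 genes each). Over other sets of genes it was 0.56 with DESeq2 (14461 entered) and 5.83 without that replicate (1313 tested).

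Against 142 genes (93 higher, 49 lower), DESeq2 with its own scaling and filter called 546 (525 and 21 of 14461 entered), library totals 728 (688 and 40), no filter 31 (9 and 22) and a stricter filter of 20 counts in 50% of libraries 21 (11 and 10 of 134 tested). The 6 GFP+ libraries alone gave 160 higher and 26 lower of 581 tested, and leaving out ribosomal RNA rows gave 144 higher and 54 lower. The split was 112 and 43 with all 28 libraries, 116 and 43 with TMMwsp, 91 and 46 with DESeq2 size factors, 98 and 49 without ribosomal RNA and mitochondrial rows (added after the data were seen), and 72 and 61 without libraries under 10000 reads. Of the 93 and 49 genes, 93 and 21 were called the same way by DESeq2, 91 and 36 with totals, 6 and 19 without a filter and 68 and 45 without the small libraries. Same-number thyroid and salivary GFP+ libraries deviated with correlations of -0.081 to 0.0073, under the 0.1 needed to treat the numbers as pairs. With the replicate block, 66 and 35 were called, all among the 142, and among named genes Cd24a, Esam, Hbb-bt, Thy1, Id2, Igf1, Igfbp4, Gpx3, Sox9 and the 4 mitochondrial genes lost their calls. Leaving out each library in turn gave 31 to 177 genes, 12 to 117 higher and 19 to 65 lower. The lowest counts came without salivary GFP+ replicate 3 (12 and 19), and the bounds and ratios of reads without that library were added after the data were seen. Without salivary GFP+ replicate 1 they were 61 and 65, without replicate 2 they were 42 and 40, and without thyroid GFP+ replicates 2 and 3 they were 39 and 40 and 45 and 41. The interaction count of 0 was 1 without the libraries under 10000 reads and 0 to 1 when each library was left out.

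Signs turned for genes that mostly had no call. Btg2 was at 0.14 with all 28 libraries, 1.83 with DESeq2, 1.53 with library totals, 1.02 without a filter, 0.097 with the block, and between -0.53 and 7.60 when each library was left out (0.0053 without salivary GFP- replicate 1, 0.0019 and 0.070 without thyroid GFP+ replicates 1 and 3). Ccnd1 was at 1.35 with DESeq2, 1.15 with totals, 0.53 without a filter and between -1.84 and 6.42 when each library was left out, the highest without salivary GFP+ replicate 3. Malat1 was at 1.19, 0.75, 0.51 and 1.36 in the same order, with -0.91 to 1.36 when each library was left out, and Epcam at 0.65 with DESeq2 and 0.24 with totals. Esam was at 2.79 without the libraries under 10000 reads and between -6.23 and 2.68 when each library was left out, the highest without salivary GFP+ replicate 1. Sox9 was between -2.39 and 0.82, the highest without salivary GFP+ replicate 3. The cause of these shifts was not tested.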
